A study of Mus musculus with 4 samples.

Results

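The transcripts of the ATF4 amino acid response and of the cytosolic aminoacyl-tRNA synthetases were quantified by RNA-seq of 32Dcl3-Abl1ko cells, a murine hematopoietic line in which Abl1 was targeted by CRISPR/Cas9. Members were chosen by name: Atf4, its targets Ddit3, Trib3 and Chac1, 8 enzymes of amino acid and one-carbon synthesis, 3 amino acid transporter chains and the 20 subunits of the cytosolic synthetases. Of these 35 names, 34 matched 1 of the 23756 genes in the table and all 34 passed the expression filter. Chac1 was not analysed here. The methionyl enzyme Mars1 stood under its older name Mars.

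The amino acid response begins at ribosomes that run short of charged tRNA, where the kinase GCN2 phosphorylates the initiation factor eIF2. Bulk translation then slows while the Atf4 message is translated more, and the ATF4 protein binds composite C/EBP-ATF elements near genes that import amino acids, make them or charge them onto tRNA. PERK, PKR and HRI phosphorylate the same site under endoplasmic reticulum stress, double-stranded RNA or heme shortage, so the response is also called the integrated stress response. In cells that depend on a cytokine, growth factor signals acting through mTORC1 also feed into ATF4.

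The comparison was between 2 groups, each with 2 libraries. The Abl1ko/IL3+ cells were kept with interleukin-3 (IL-3), the cytokine on which the 32Dcl3 line depends, and the Abl1ko/IL3- cells came through gradual IL-3 withdrawal and grew without it. Both groups carry the Abl1 edit, which was made with 2 guides and followed by selection of single clones, and the labels tie no library to a guide or clone. A difference between the clones of the groups and a difference due to IL-3 cannot be told apart. Cells of the study without the edit, 32Dcl3-Abl1 with IL-3, are not analysed here.

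The libraries held between 48953174 and 60382588 counts, and 3 counts, the limit that a count of 0 allows, equal 0.0497 to 0.0613 CPM (counts scaled by library size), counting error only. Abl1 was at 20.5 and 40.9 CPM with IL-3 and 32.3 and 38.9 CPM without it. The labels call the cells pre-B. The 7 pre-B markers measured summed to between 18.99 and 26.01 CPM, with no single one above 16.2 CPM and Vpreb2, Igll1 and Rag1 under 1 CPM in every library. The 12 myeloid progenitor markers summed to 4039 and 3442 CPM with IL-3 and 2822 and 2102 CPM without it. They were led by the granule gene Mpo, at 1879 and 1477 CPM with IL-3 and 908 and 499 CPM without it. Kit and Cd34, however, were under 1 CPM. Of the 11 progenitor markers that passed the filter, 9 had a lower fitted level without IL-3, against 51.9% of all genes. In 2 of the 11 both libraries without IL-3 were below both with it, against 17.9% of all genes. Libraries of 1 group differed from each other. The summed level of 8 erythroid and megakaryocyte markers was 934 and 8128 CPM with IL-3 and 4422 and 2378 CPM without it, and that of 12 maturing granulocyte markers was 945 and 358 CPM against 963 and 5456 CPM. Of these granulocyte markers, 8 of the 10 that passed the filter had a higher fitted level without IL-3, while 51.9% of all genes had a lower one. In 5 of the 10 both libraries without IL-3 were above both with it, against 19.4% of all genes. One of these, Camp, exceeded 1 CPM only in replicate 2 without IL-3. For Ngp, Lcn2 and Csf3r the groups overlapped, and only replicate 2 without IL-3 was above both libraries with it. No marker of these 2 lists was at 0 in every library, although Mmp8, Retnlg and Csf3r stayed under 1 CPM. Mast cell and basophil markers summed to 1461 and 253 CPM with IL-3 and 433 and 455 CPM without it, macrophage markers to 336 and 80.5 CPM against 112 and 229 CPM, and T cell markers to at most 5.94 CPM. In these bulk libraries, fewer cells of a type and less RNA per cell cannot be told apart. The part of these cell markers in the results below was not tested.

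The best known DNA sequence of this response is the composite element, searched here as TGATGNAAN on both strands in windows of 250 bases before to 50 bases after each RefSeq start (build GRCm38.p6). It was found in 1299 of 32851 windows, or 3.95%, and counted per gene in 1215 of 27025 genes, or 4.5%. Of 27 members with a window, 10 held it, 1 of them Chac1. Cars, Hars, Lars, Nars, Rars, Slc7a5, Vars and Wars had no window. The sites of the main members read as follows in the direction of the gene, with the match in capitals. A match that reads as TTTGCATCA or a variant of it is the element on the other strand.
Slc7a11, distal site, chr3:50443663-50443687, minus strand: catgtggcTGATGCAAAcctggaga
Slc7a11, proximal site, chr3:50443645-50443669, minus strand: ctggagaaTTTGCATCAtcatgcag
Trib3, chr2:152344031-152344055, minus strand: agctcaggTTTACATCAgccgggcg
Asns, chr6:7693216-7693240, minus strand: cagccacaTGATGAAACttcccgca
Aars, upstream site, chr8:111033721-111033745, plus strand: tcttgagcATTGCATCAgccgagcc
Gars, chr6:55037962-55037986, plus strand: gctgcgctATTTCATCAtgcaccgg
Iars, chr13:49682128-49682152, plus strand: ctgtcagtATTGCATCAcctccaga
Tars, chr15:11399658-11399682, minus strand: ggagtcccGTTGCATCAgctggtta
Yars, chr4:129189898-129189922, plus strand: agctcagcTGATGCAACccgacggg

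The sites of Asns, Aars, Iars and Yars lie in annotated exons of GENCODE, and those of Slc7a11, Trib3, Gars and Tars lie outside them. Slc7a11 and Aars each held 2 matches, and Pycr1 held 1. The 2 matches of Slc7a11 lie on opposite strands, 58 and 40 bases before its start. Because Slc7a11 had the largest difference of all members, its upstream sequence on the minus strand (chr3:50443615-50443863, up to the first annotated exon) is given with both matches in capitals.
Slc7a11, upstream: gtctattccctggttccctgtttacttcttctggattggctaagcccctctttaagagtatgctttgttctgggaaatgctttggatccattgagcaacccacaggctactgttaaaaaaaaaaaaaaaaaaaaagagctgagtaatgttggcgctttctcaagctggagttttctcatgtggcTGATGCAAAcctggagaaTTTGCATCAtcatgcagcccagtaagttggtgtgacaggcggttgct

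Members of the response had fitted differences in both directions. In 5 of 34 members both libraries without IL-3 were above both with it, against 19.4% of all genes. These were Atf4, Ddit3, Trib3, the cystine transporter Slc7a11 and the serine enzyme Psph. A lower fitted level without IL-3 was found for 18 of 20 synthetases and 5 of 8 synthesis enzymes, against 51.9% of all genes. Both libraries without IL-3 were below both with it in 7 of the 20 and 3 of the 8, against 17.9% of all genes. With IL-3 replicate 2 left out, 12 of 20 synthetases had a lower fitted level. No member passed an adjusted p of 0.05 in the quasi-likelihood test of edgeR, with Benjamini-Hochberg adjustment over 16535 genes (0% of all genes passed, and the members' adjusted p ranged from 0.572 to 0.994). At an unadjusted p under 0.05 the test named 3 of 34 members, Ddit3, Slc7a11 and Vars, against 978 genes or 5.91% overall. The 2 higher members compare with 2.56% of all genes and the 1 lower member with 3.36%. DESeq2 called 1 member, Slc7a11, against 271 genes or 1.64% overall. Over the 34 members the median log2 fold change (without IL-3 against with it) was -0.29, and over all genes tested it was -0.03.

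**Figure D1:**
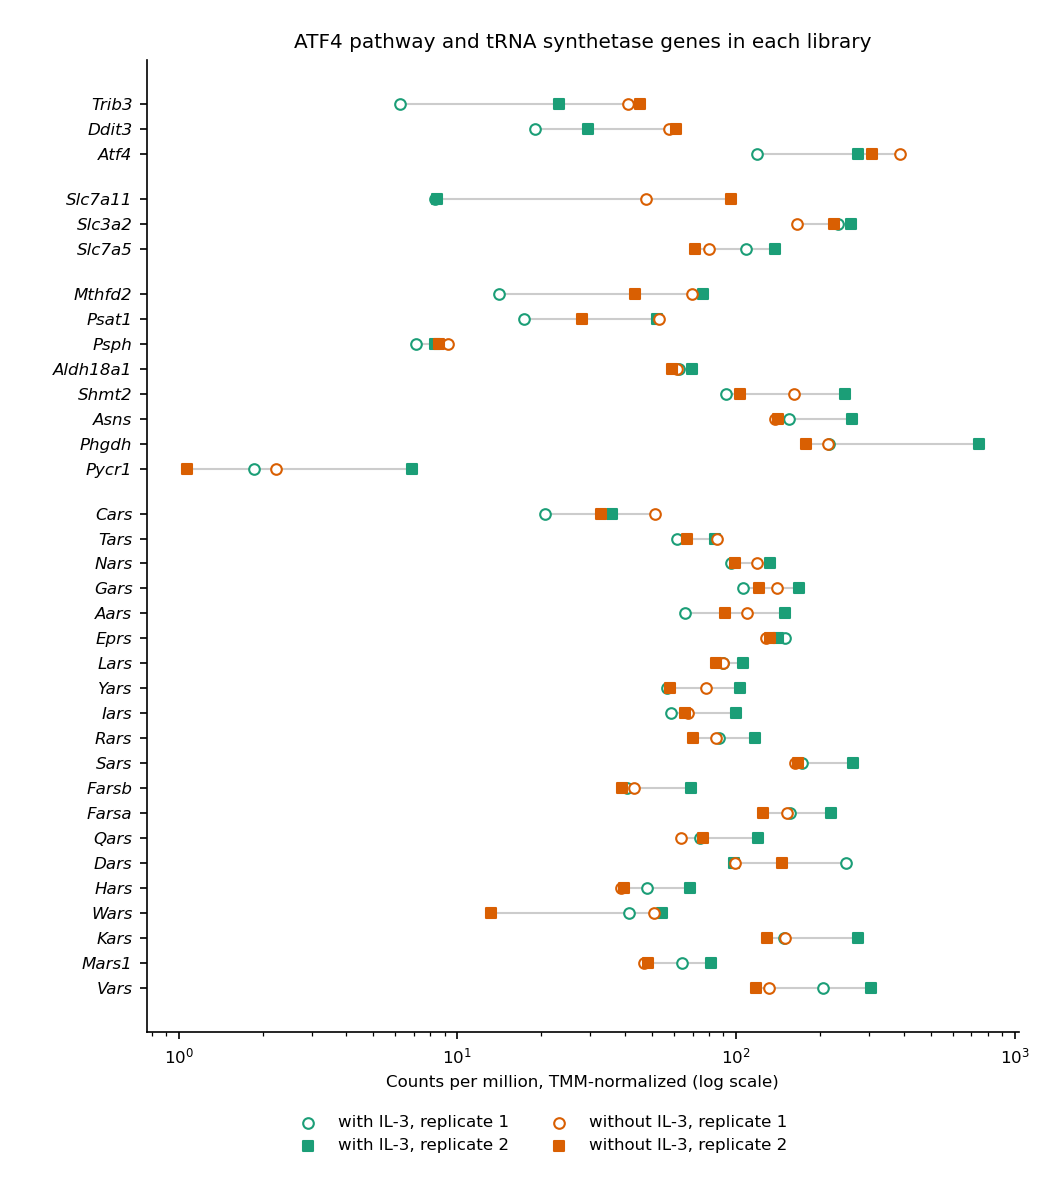
Level of each of the 34 genes in each library, in TMM-normalized CPM on a log scale, with genes grouped from top to bottom as regulators, transporters, synthesis enzymes and cytosolic synthetases. Levels are comparable along a row, not between rows, since gene length is not accounted for. In 24 of 34 rows the filled green square, IL-3 replicate 2, is the highest library.

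Among the regulators, Atf4, the transcription factor at the center of the response (ENSMUSG00000042406, chr15:80255184-80257541, plus strand, GRCm38), was at 119 and 274 CPM with IL-3 and 387 and 307 CPM without it. The groups did not overlap, but the nearest libraries were only 1.12-fold apart, and the 2 libraries with IL-3 differed 2.30-fold from each other. The log2 fold change was 0.82 (standard error 0.49, n = 2 per group, adjusted p = 0.889 in edgeR).

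Ddit3, which encodes the transcription factor CHOP (ENSMUSG00000025408, chr10:127290774-127296288, plus strand), was at 19.0 and 29.4 CPM with IL-3 and 57.4 and 61.0 CPM without it. Both libraries without IL-3 were at least 1.95-fold above both with it. Its log2 fold change of 1.29 had a standard error of 0.37 and a 95% interval from 0.35 to 2.24 (unadjusted p = 0.0171, adjusted p = 0.727 in edgeR). Ddit3 overlaps Mars1 on the opposite strand by 68 exonic bases, and whether reads were counted by strand is not stated in the sources used. A second annotated Ddit3 gene had 1 count in every library.

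Trib3, a pseudokinase induced by ATF4 and CHOP that restrains them in turn (ENSMUSG00000032715, chr2:152337422-152344032, minus strand), was at 6.21 and 23.3 CPM with IL-3 and 41.1 and 45.2 CPM without it. The libraries without IL-3 were close to each other and above both others, while the 2 libraries with IL-3 differed 3.75-fold. The log2 fold change was 1.55 (standard error 0.68, adjusted p = 0.854 in edgeR). All 3 regulators were lowest in IL-3 replicate 1, the lowest library for 31.6% of all genes. Groups did not overlap in 17 of 34 members, against 37.3% of all genes. Groups that did not overlap, with the higher values without IL-3, were found for 19.4% of all genes and for 5 members, these 3, Slc7a11 and the serine enzyme Psph.

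Slc7a11 (ENSMUSG00000027737, chr3:49892526-50443614, minus strand) encodes the chain of the cystine-glutamate exchanger that carries cystine, the source of cysteine for glutathione. It was at 8.32 and 8.46 CPM with IL-3 and 47.4 and 96.2 CPM without it. The libraries with IL-3 were nearly equal, and the lower library without IL-3 was still 5.60-fold above them, although the 2 libraries without IL-3 differed 2.03-fold. The log2 fold change was 3.10 (standard error 0.48, 95% interval 1.87 to 4.33, unadjusted p = 0.00132, adjusted p = 0.572 in edgeR), and DESeq2 gave an adjusted p of 4.47e-06.

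The maturing granulocyte markers, summed above, were also highest in replicate 2 without IL-3, and their part in the level of Slc7a11 was not tested.

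The other transporter chains had lower levels without IL-3. Slc3a2, the heavy chain that carries both exchangers to the membrane, was at 233 and 258 CPM with IL-3 and 165 and 224 CPM without it. Slc7a5, the large neutral amino acid exchanger that takes up leucine, was at 109 and 139 CPM with IL-3 and 80.0 and 71.4 CPM without it. In both, the libraries without IL-3 were the lower ones, as in 12 of 34 members and 17.9% of all genes, with log2 fold changes of -0.33 (standard error 0.33) and -0.71 (standard error 0.32, unadjusted p = 0.0770 and adjusted p = 0.854 in edgeR).

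**Figure D2:**
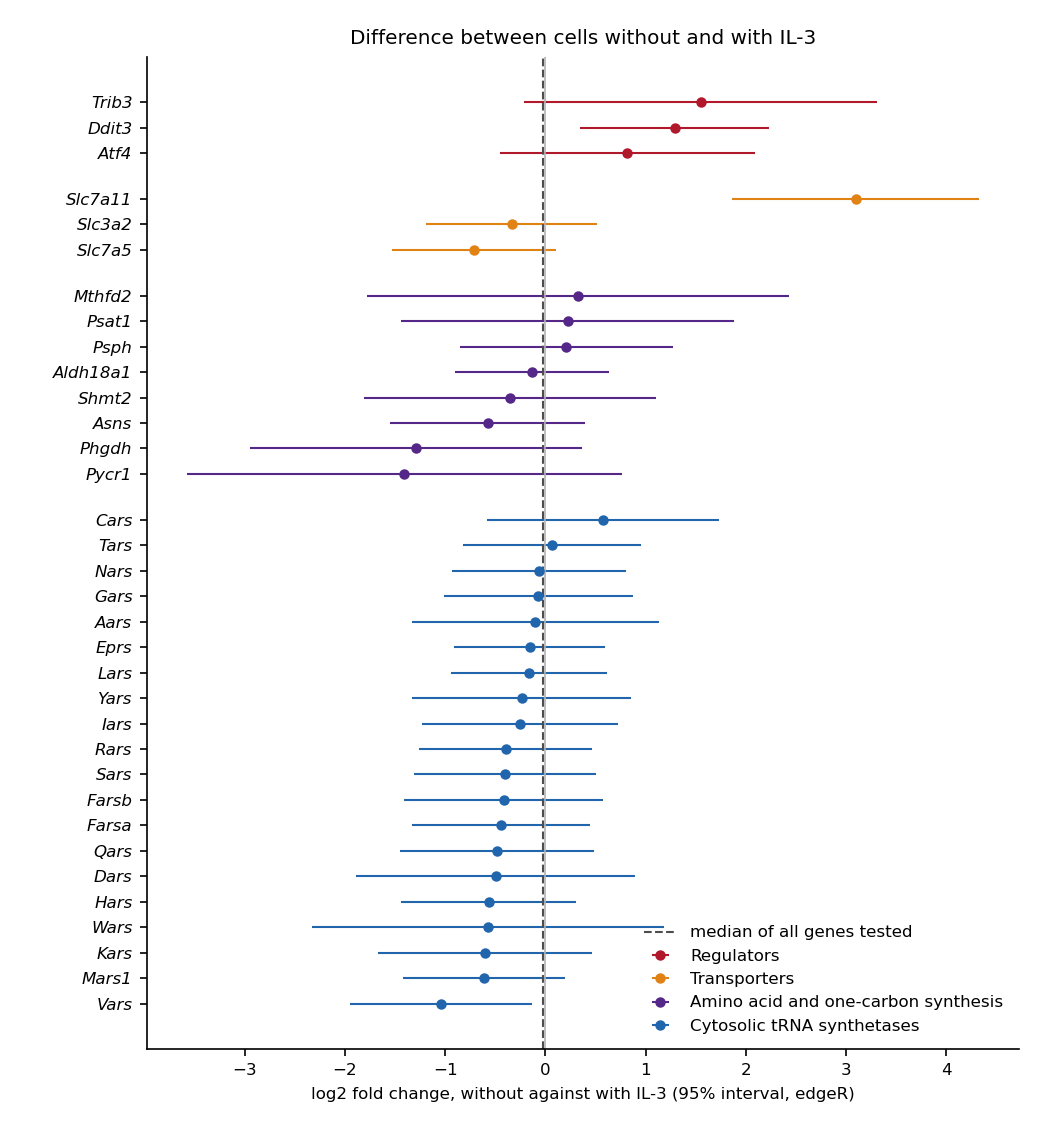
Log2 fold change of each gene (without IL-3 against with it) and its 95% interval from edgeR, ordered by role. The dashed line marks the median of all 16535 genes tested, -0.03. The intervals of Ddit3 and Slc7a11 lie above 0 and that of Vars lies below 0 without adjustment for the number of genes.

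Of the 8 synthesis enzymes, 5 were at least 2 times apart (on a log2(CPM + 0.5) scale) between the libraries with IL-3 and 0 between those without it, and none passed the unadjusted threshold. Their log2 fold changes had a median of -0.24, and 3 were higher and 5 lower. Asns, which makes asparagine from aspartate and glutamine, was at 156 and 260 CPM with IL-3 and 138 and 141 CPM without it. Both libraries without IL-3 were below both others, and the log2 fold change was -0.58 (standard error 0.38, adjusted p = 0.898 in edgeR), but -0.16 with IL-3 replicate 2 left out and -0.88 with IL-3 replicate 1 left out.

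Serine synthesis runs from 3-phosphoglycerate through Phgdh, Psat1 and Psph. Phgdh, the entry enzyme, was at 216 and 745 CPM with IL-3 and 215 and 178 CPM without it. IL-3 replicate 2 alone stood apart, and the other 3 libraries lay close together. The log2 fold change was -1.29 (standard error 0.64, adjusted p = 0.860 in edgeR), and -0.14 without that library. Psat1, the aminotransferase, was at 17.4 and 52.0 CPM with IL-3 and 53.1 and 28.0 CPM without it, so the groups overlapped (log2 fold change 0.22, standard error 0.65). Psph, the phosphatase, ranged only from 7.12 to 9.28 CPM.

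The mitochondrial folate enzymes Shmt2 and Mthfd2, which take a carbon from serine, and Pycr1, the last step of proline synthesis, had the same order among the libraries with IL-3. Shmt2 was at 91.9 and 246 CPM with IL-3 and 161 and 104 CPM without it. Mthfd2 was at 14.1 and 76.2 CPM with IL-3 and 69.6 and 43.3 CPM without it. In both, the libraries without IL-3 lay between those with it. Pycr1 was at 1.86 and 6.90 CPM with IL-3 and 2.24 and 1.07 CPM without it. Aldh18a1, the first step of proline synthesis, ranged only from 58.9 to 69.5 CPM.

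Per unit of length, these enzymes covered a wide range of levels. By the authors' FPKM values, Phgdh reached 240 in IL-3 replicate 2 and lay between 66.2 and 83.6 in the others, Asns lay between 43.0 and 76.1, and Pycr1 never exceeded 1.40. Atf4 lay between 48.6 and 140 FPKM, Ddit3 between 10.7 and 33.0 FPKM, and Slc7a11 between 0.486 and 6.39 FPKM. Slc7a11 thus stayed a low transcript on this scale even where it was highest.

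The cytosolic synthetases attach each amino acid to its tRNA. All 20 were detected in every library at 13.2 CPM or more. Of the 20, 18 were lower and 2 higher (median log2 fold change -0.40), and their summed level was 1990 and 2695 CPM with IL-3 and 1894 and 1724 CPM without it. A fitted value below 0 was found for 51.9% of all genes. In 7 genes both libraries without IL-3 were below both with it (Eprs, Rars, Sars, Farsa, Hars, Mars1 and Vars), against 17.9% of all genes, and in 0 of 20 was the reverse seen, against 19.4%. In either direction the share was 35.0% of the synthetases and 37.3% of all genes.

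Vars, the valyl enzyme (ENSMUSG00000007029, chr17:35000987-35016322, plus strand), had the lowest log2 fold change of the synthetases. It was at 206 and 306 CPM with IL-3 and 131 and 118 CPM without it, so the nearest libraries were 1.57-fold apart. Its log2 fold change was -1.04 (standard error 0.35, 95% interval -1.95 to -0.13, unadjusted p = 0.0322, adjusted p = 0.815 in edgeR). Cars, the cysteinyl enzyme, had the highest. It was at 20.6 and 35.8 CPM with IL-3 and 51.4 and 32.8 CPM without it, so the groups overlapped (log2 fold change 0.58, standard error 0.45, adjusted p = 0.919 in edgeR).

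The enzymes for threonine (Tars, 0.07), asparagine (Nars, -0.06), glycine (Gars, -0.07) and alanine (Aars, -0.10) had log2 fold changes closest to 0. Eprs, which joins the glutamyl and prolyl enzymes in 1 chain, was at -0.16, like Lars for leucine (-0.16), and Yars for tyrosine (-0.24) and Iars for isoleucine (-0.25) followed. Rars for arginine (-0.40), Sars for serine (-0.40), Farsb and Farsa, the subunits of the phenylalanyl enzyme (-0.42 and -0.44), Qars for glutamine (-0.48), Hars for histidine (-0.56), Kars for lysine (-0.60) and Mars1 (-0.61) were lower. None of these log2 fold changes passed the unadjusted threshold.

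Dars and Wars departed from the others by library. Dars, the aspartyl enzyme, was at 249 and 98.2 CPM with IL-3 and 99.5 and 147 CPM without it, and it was the only synthetase besides Eprs that was higher in IL-3 replicate 1 than in replicate 2. Wars, the tryptophanyl enzyme, was at 41.2 and 54.2 CPM with IL-3 and 51.0 and 13.2 CPM without it. The low value in replicate 2 without IL-3 was 1 library of 4, and without it the log2 fold change of Wars was 0.10 in place of -0.57.

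**Figure D3:**
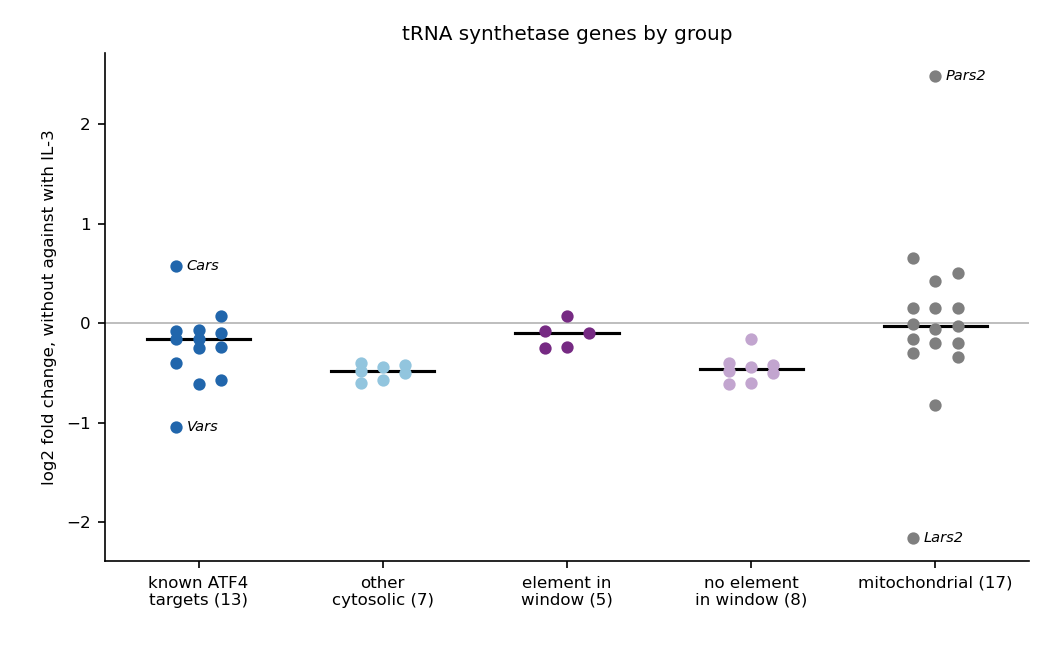
Single synthetase genes (points) by log2 fold change, without IL-3 against with it, and the median of each group (black bars), with the number of genes in parentheses. The first 2 columns split the 20 cytosolic subunits by whether they are known ATF4 targets, and the next 2 split the 13 with a RefSeq window by the composite element. The 17 mitochondrial enzymes spread around 0, with Pars2 at 2.49 and Lars2 at -2.16.

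The synthetases were also split by what is known of them. The 13 commonly listed as ATF4 targets (Aars, Cars, Eprs, Gars, Iars, Lars, Mars1, Nars, Sars, Tars, Vars, Wars and Yars) had a median log2 fold change of -0.16 and ranged from -1.04 to 0.58. Their median was 0.19 with IL-3 replicate 2 left out and -0.56 with IL-3 replicate 1 left out, so its sign rested on 1 library. The other 7 had a median of -0.48 and ranged only from -0.60 to -0.40. The median of the 7 was the lower under each alternative setting, by between 0.17 and 0.46. The 8 enzymes of the multisynthetase complex (Dars, Eprs, Iars, Kars, Lars, Mars1, Qars and Rars) had a median of -0.44 and the 12 outside it a median of -0.32. The classes by fold of the catalytic domain were at -0.32 for class I and -0.41 for class II. These are descriptions of 1 set of 4 libraries, with no test between the groups.

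A similar order appeared with the element, but this split is not independent of the one by known targets. Every synthetase with a match is also a listed ATF4 target. The listed targets with a window and no match were Eprs (-0.16), Sars (-0.40) and Mars1 (-0.61). The 5 synthetases with a match (Aars, Gars, Iars, Tars and Yars) lay between -0.25 and 0.07 with a median log2 fold change of -0.10. The 8 with a window and no match (Dars, Eprs, Farsa, Farsb, Kars, Mars1, Qars and Sars) lay between -0.61 and -0.16 with a median of -0.46. The medians with and without a match were 0.30 and -0.14 with IL-3 replicate 2 left out and -0.56 and -0.69 with IL-3 replicate 1 left out. With replicate 2 of the cells without IL-3 left out, the median with a match was 0.038. The groups differed in their lowest library. IL-3 replicate 1 was the lowest for 5 of the 5 with a match and for 0 of the 8 without, against 31.6% of all genes. This contrast was picked after the values were seen, and it was less sharp over all members with a window. There the same library was the lowest for 7 of 9 members with a match and 6 of 17 without. Aars, for example, was at 65.8 and 150 CPM with IL-3 and 110 and 91.6 CPM without it, and Gars was at 106 and 169 CPM with IL-3 and 140 and 122 CPM without it. In both, the libraries without IL-3 lay between those with it. Of the exon bases of Aars, 14.3% are shared with Exosc6 on the same strand. Members with a match were not alike beyond the synthetases. Of the 4 others, Slc7a11 and Trib3 were higher and Asns and Pycr1 lower without IL-3. Ddit3 and Atf4 had no match in their windows. Sequence outside the windows, 250 bases before to 50 bases after each start, was not searched, so no match does not mean no element.

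The libraries with IL-3 differed in nearly every member. IL-3 replicate 2 was above replicate 1 in 32 of 34 members, against 48.2% of all genes, and at least 2 times above it on the log2(CPM + 0.5) scale in 8, against 12.5%. The median log2 difference between these replicates was 0.61 over the members and -0.03 over all genes. It was 1.48 over the synthesis enzymes, 0.54 over the synthetases and 0.15 over the transporters. Replicate 2 was the highest of the 4 libraries for 24 of 34 members, against 28.3% of all genes. The summed level of the members was 3050 and 4890 CPM with IL-3 and 3381 and 3092 CPM without it. The libraries without IL-3 were at least 2 times apart on the same scale for 2 members, Slc7a11 and Wars, against 9.14% of all genes.

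The difference between the libraries with IL-3 went with the erythroid and megakaryocyte markers, of which all 8 were higher in IL-3 replicate 2, led by Hba-a1 at 117 and 6745 CPM (3316 and 1575 CPM without IL-3). Other marker sums differed as well. Lower in replicate 2 were those of mast cells and basophils (1461 and 253 CPM), macrophages (336 and 80.5 CPM), maturing granulocytes (945 and 358 CPM) and myeloid progenitors (4039 and 3442 CPM). The low pre-B and T cell sums were higher there. The order of the 4 libraries in the summed erythroid and megakaryocyte markers was also that of 7 of 34 members, against 10.1% of all genes. These were Shmt2, Mthfd2, Aars, Gars, Iars, Nars and Yars, and the order was looked for after the values were seen. The part of any of these cell types in the members' difference was not tested. With IL-3 replicate 2 left out, the members split into 16 higher and 18 lower and the synthetase median was -0.07. With IL-3 replicate 1 left out, the members split into 7 higher and 27 lower and the synthetase median was -0.59. Slc7a11, Ddit3, Trib3 and Atf4 were higher without IL-3 in both of these fits, but the size of the difference depended on which library was kept. With IL-3 replicate 1 left out, the log2 fold changes were 0.35 for Atf4 and 0.91 for Trib3, and with IL-3 replicate 2 left out they were 1.54 and 2.80. Those of Ddit3 were 1.03 and 1.64, and those of Slc7a11 were 3.10 and 3.11.

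**Figure D4:**
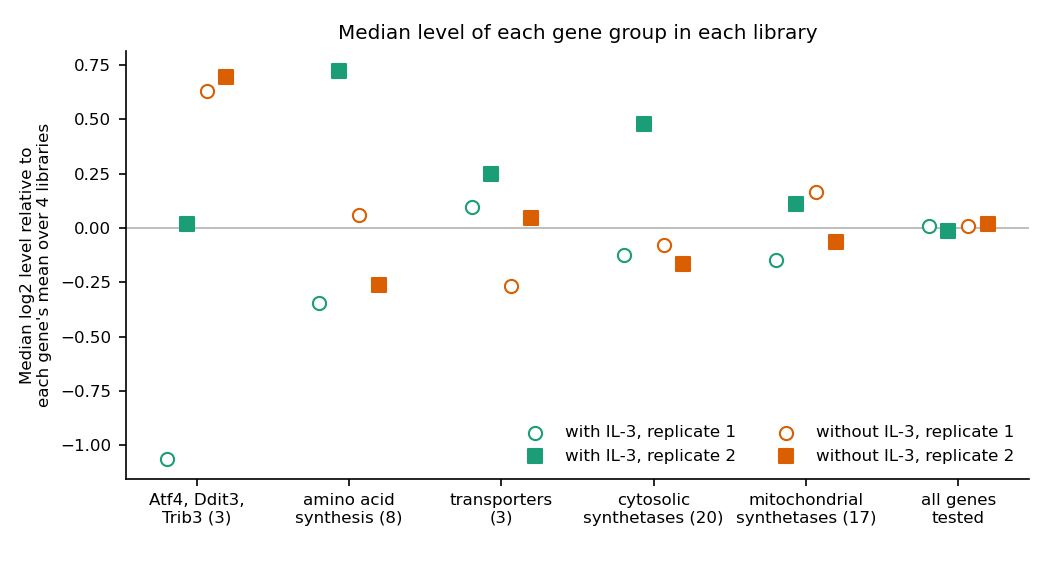
Median log2 level of each gene group in each library, after subtraction of the gene's own mean in the 4 libraries, with the number of genes in parentheses. Both libraries without IL-3 are highest for the regulators (0.63 and 0.70), and IL-3 replicate 2 is highest for the synthesis enzymes (0.72) and the cytosolic synthetases (0.48). The median of all genes stays near 0 in every library.

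Upstream of Atf4 stand the kinases and phosphatases of eIF2. The 9 genes of eIF2 signalling, 2 higher and 7 lower, had a median of -0.17 on the log2 scale, and none was at an unadjusted p under 0.05. Eif2ak4, which encodes GCN2, was at 39.4 and 22.8 CPM with IL-3 and 25.1 and 30.3 CPM without it, and Eif2ak3, which encodes PERK, was at 31.3 and 14.6 CPM against 16.9 and 19.1 CPM. Ppp1r15a, the phosphatase subunit GADD34 that is itself induced by the response, was at 92.5 and 93.4 CPM with IL-3 and 46.2 and 90.5 CPM without it. These are transcript levels, and phosphorylation of eIF2 was not measured here.

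The 22 other known targets of ATF4, 13 higher and 9 lower, had a median log2 fold change of 0.08, again with none at an unadjusted p under 0.05. Atf5, a related transcription factor, was at 18.7 and 39.6 CPM with IL-3 and 44.8 and 44.7 CPM without it. Cebpb, a partner of ATF4 on the composite element, was at 11.3 and 23.5 CPM with IL-3 and 21.3 and 29.0 CPM without it. Both were lowest in IL-3 replicate 1, as were 6 of the 22 targets, against 31.6% of all genes. Sesn2, an inhibitor of mTORC1, was at 84.2 and 68.4 CPM with IL-3 and 69.9 and 98.5 CPM without it, with overlapping groups.

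The other arms of the endoplasmic reticulum stress response were split. Of 16 genes, 8 were higher and 8 lower (median log2 fold change 0.02). Hsp90b1, an endoplasmic reticulum chaperone, was at 705 and 692 CPM with IL-3 and 1398 and 1159 CPM without it (log2 fold change 0.87, standard error 0.33, unadjusted p = 0.0477, adjusted p = 0.841 in edgeR). Hspa5, the chaperone BiP, was at 467 and 448 CPM with IL-3 and 93.5 and 787 CPM without it, so the libraries without IL-3 stood on either side. Xbp1, the transcription factor of the IRE1 arm, ranged only from 235 to 279 CPM.

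The 17 mitochondrial synthetases, which charge tRNA inside the organelle, had a median of -0.03 on the log2 scale, and 7 were higher and 10 lower. Lars2, the mitochondrial leucyl enzyme, was at 28.6 and 21.4 CPM with IL-3 and 4.49 and 6.72 CPM without it. Its log2 fold change was -2.16 (standard error 0.44, unadjusted p = 0.00472, adjusted p = 0.727 in edgeR). Pars2, the prolyl enzyme, went the other way, at 2.89 and 0.846 CPM with IL-3 and 10.9 and 10.1 CPM without it (log2 fold change 2.49, standard error 0.73, unadjusted p = 0.0193, adjusted p = 0.737 in edgeR). The groups of both genes did not overlap, as in 47.1% of the mitochondrial synthetases and 37.3% of all genes. DESeq2 called both at an adjusted p under 0.05, which made 2 of 17 against 1.64% of all genes. Pars2 had only 46 counts in IL-3 replicate 2. The 3 scaffold genes of the multisynthetase complex (median -0.08) and 8 other one-carbon genes (median -0.08, 4 higher and 4 lower) held no gene at an unadjusted p under 0.05.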

How the data were processed

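The authors removed ribosomal RNA, sequenced on an Illumina HiSeq, used Rsubread for alignment to GRCm38, and deposited raw featureCounts counts per gene. They also deposited FPKM values, which scale reads by gene length and depth. The submitters' processing notes also name STAR, Cuffdiff and mm10, with no role or version. The strand setting is not given in the sources used here, so reads of overlapping genes may be split or lost.

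Counts were filtered with filterByExpr, normalized by TMM and analysed by edgeR 4.0.16 (R 4.3.3), whose quasi-likelihood F test is two-sided here, with Benjamini-Hochberg adjustment over all genes tested and a threshold of 0.05. CPM values are TMM-normalized. Standard errors come from the log2 fold change and its F statistic. Differences between replicates used log2(CPM + 0.5). Nothing says that the 2 libraries of a group came from separate cultures, so p-values measure only the spread between these libraries, which may be technical. No pair of libraries was alike within sampling noise, and all 4 were kept. The labels do not say what libraries with the same replicate number share, so the number was a block only as an alternative.

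Members and lists were chosen with earlier results of these data known. Genes were named by rule: each member, with values in every library for Atf4, Ddit3, Trib3, Asns, Psat1, Phgdh and Slc7a11, for members with an unadjusted p under 0.05 or non-overlapping groups at least 1 apart on the log2 scale, and for the highest and lowest synthetase. In the pathway lists they were genes with an unadjusted p under 0.05 and 8 fixed genes. Other values per library were given after they were seen. Elements were searched in RefSeq windows matched by symbol. Alternatives were DESeq2 1.42.0, library size alone, no filter, at least 10 counts in every library, a replicate block, limma 3.58.1 on log2(FPKM + 1) and log2(FPKM + 0.1), an adjusted p under 0.01, and each library left out. The crossed pairing was added after seeing the data. The steps were run on simulated counts with known changes, as a check of the code only. The spread between simulated replicates was a fixed setting and not that of these libraries, so the check does not show how sensitive the tests were here.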

Additional observations from a re-analysis of the deposited data

How the results depend on the processing

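Of 34 members, 22 kept the direction of their log2 fold change in all 12 alternative fits, among them Atf4, Ddit3, Trib3, Slc7a11, Asns, Phgdh and Vars. DESeq2 called 271 genes and 1 member, Slc7a11 (adjusted p = 4.47e-06), where edgeR called 0. With single libraries left out, edgeR called 0 to 15 genes and 0 members, the 15 without replicate 1 of the cells without IL-3. The lone library of an arm was then assumed to vary like the other group. Leaving out IL-3 replicate 1 or 2 raised the members at an unadjusted p under 0.05 from 3 to 14 and 7, and all genes from 978 to 2604 and 2938. The synthetase median ranged from -0.59 to -0.075 with single libraries left out, the latter without IL-3 replicate 2, and the member median from -0.56 to -0.04. The number of synthetases with a lower level was 12 of 20 without IL-3 replicate 2.

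Directions turned in 12 members, 11 of them only with a library left out. The lowest and highest log2 fold changes were then -0.35 and 1.22 for Psat1, -0.42 and 1.998 for Mthfd2, -1.02 and 0.34 for Dars, -0.12 and 0.31 for Tars, -0.88 and 0.53 for Shmt2, -0.56 and 0.62 for Aars, -0.73 and 0.011 for Farsb, -0.35 and 0.30 for Gars, -0.57 and 0.19 for Iars, -0.26 and 0.19 for Nars, -0.59 and 0.27 for Yars and -1.85 and 0.10 for Wars. Aars also turned to 0.015 with the replicate block, 0.024 and 0.032 with limma on log2(FPKM + 1) and log2(FPKM + 0.1), and 0.015 with crossed pairs. The cause was not tested.

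With the replicate block, 0 members passed the adjusted threshold and 3 had an unadjusted p under 0.05 (Ddit3, Trib3 and Slc7a11, no longer Vars), and all genes at that threshold went from 978 to 548. Deviations of same-numbered libraries correlated at -0.21 over genes, so the numbers gave no sign of pairing. With the numbers crossed, 4 members and 1136 genes had an unadjusted p under 0.05 and 0 passed the adjusted threshold. With 2 libraries per group, the median standard error of a member was 0.38 on the log2 scale, while depth was not limiting, since the lowest member, Pycr1, had at least 62 counts.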

Other observations

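Several pathway genes outside the naming rule were picked after their values were seen. The endoplasmic reticulum cochaperone Dnajb11 was at 74.8 and 75.0 CPM with IL-3 and 127 and 112 CPM without it, and the secreted stress factor Manf was at 106 and 218 CPM with IL-3 and 249 and 241 CPM without it. Creld2 was at 24.9 and 50.5 CPM with IL-3 and 73.3 and 53.8 CPM without it. With Hsp90b1 these made 4 of 16 genes of the other stress arms whose groups did not overlap and were higher without IL-3, against 19.4% of all genes. Calr, an abundant calcium-binding chaperone, was at 4481 and 4567 CPM with IL-3 and 3410 and 2916 CPM without it. The log2 fold changes were 0.67 for Dnajb11 (adjusted p = 0.854), 0.60 for Manf (adjusted p = 0.908), 0.75 for Creld2 (adjusted p = 0.892) and -0.52 for Calr (adjusted p = 0.901), all in edgeR.

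Both glycine cleavage genes among the one-carbon genes lay apart in opposite directions. Amt, the aminomethyltransferase, was at 1.75 and 2.94 CPM with IL-3 and 4.24 and 8.43 CPM without it (log2 fold change 1.43, standard error 0.61, adjusted p = 0.854 in edgeR). Gcsh, the carrier protein, was at 12.7 and 26.5 CPM with IL-3 and 10.1 and 7.06 CPM without it (log2 fold change -1.19, standard error 0.53, adjusted p = 0.854 in edgeR). Neither passed an unadjusted p of 0.05.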
